A study of Mus musculus with 12 samples.

Results

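Adipocyte genes were followed across 12 4T1 tumours by RNA-Seq. The 10 members are genes known from fat cells, and each was read as the sum over its annotated transcripts: Adipoq, Lep, Retn and Cfd, which encode secreted proteins, Plin1, Plin4 and Cidec, whose products coat the lipid droplet, Fabp4 and Lpl, which handle fatty acids, and Pparg, the master transcription factor of the fat cell. They are 10 of 35944 genes in the gene-level tables, and 9 of them are among the 15459 genes with at least 10 estimated reads in at least 3 libraries. Lep did not reach that minimum and was not tested.

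4T1 is a mouse mammary carcinoma line. Per the labels, 100000 cells were implanted subcutaneously, on the right side, in BALB/c females aged 6 to 8 weeks. From day 5, extracellular vesicles (EVs) were injected around the tumour, in doses of 3 µg given at intervals of 2 days, and RNA was taken on day 21. The EVs came from MS-1 mouse endothelial cells, a cultured line, and were loaded by electroporation with a synthetic mimic of cel-miR-67 (ctrl), a nematode miRNA, or with a mimic of miR-222-3p, miR-183-5p or miR-142-5p. Each of the 4 groups held 3 tumours, all groups carried 4T1 cells and received loaded EVs, and there was no group without EVs. The labels number the tumours 1 to 3 in each group and do not say whether a number marks a shared day or cage.

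White fat cells store triglyceride in a single large droplet and release hormones such as adiponectin and leptin. Pparg, working with Cebpa, switches on the genes of storage, and the perilipins and Cidec keep the droplet large and guard it from lipases. Fat surrounds tumours grown in the flank or the mammary pad, and several of the genes here are also active outside fat: Fabp4 in capillary endothelium and macrophages, and Lpl and Pparg in macrophages. In a bulk sample, fewer cells of a type and less RNA per cell cannot be told apart.

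The 3 mature mouse miRNAs are shown because the mimics loaded into the EVs are named after them, and the capitals mark the seed (bases 2 to 8), the stretch that pairs with target transcripts. The sequences are RefSeq entries on GRCm38.p6. The mimics were modified synthetic duplexes, whose own strands can differ from these entries and are not printed here. The entry matching the label miR-142-5p is mmu-miR-142a-5p (chr11:87756867-87756887, plus strand), that of miR-183-5p lies at chr6:30169711-30169732 on the minus strand, and that of miR-222-3p at chrX:19146901-19146923 on the minus strand. The 3 seeds differ from one another.
mmu-miR-142a-5p: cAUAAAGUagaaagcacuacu
mmu-miR-183-5p: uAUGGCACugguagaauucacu
mmu-miR-222-3p: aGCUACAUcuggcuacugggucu

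The 3′ untranslated region (UTR) of each member's most abundant transcript was searched, on the transcript strand, for the 7 bases complementary to each seed, with GENCODE M21 transcripts. The letters ACTTTAT, complementary to the miR-142-5p seed, were found in 2 of 10 members, Adipoq and Lep, against 15.2% of the 13700 tested genes with a 3′ UTR. The letters GTGCCAT (miR-183-5p) and ATGTAGC (miR-222-3p) were found in 0 of 10 members, against 9.95% and 10% of those genes. The members' UTRs had a median length of 685.5 bases, against 1073 bases over all these genes. The 2 matches are printed with flanking bases on GRCm38, with the match in capitals. The Adipoq site is at chr16:23157725-23157754 and the Lep site at chr6:29073534-29073563, both on the plus strand and each within 1 exon.
Adipoq: ttcattaaacgACTTTATaaaaaataattt
Lep: gtgctgagaggACTTTATgggccacaaaag

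Lep was near the limit of detection, and Fabp4 was not. Mean TPM (a level corrected for transcript length and library size) over the 12 tumours was 64.5 for Fabp4, 12.4 for Cfd, 4.77 for Lpl, 1.31 for Pparg and 1.26 for Adipoq. It was 0.801 for Retn, 0.688 for Cidec, 0.575 for Plin1, 0.315 for Plin4 and 0.0288 for Lep. Fabp4 stood at the 83.6th percentile of the 15459 tested genes and Adipoq at the 16.5th. Fabp4 alone made up between 57.5% and 87.6% of the summed TPM of the 10 genes. Adipoq, the defining marker of fat cells, was at or under 2.77 TPM in every tumour, and Lep at or under 0.137.

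**Figure D1:**
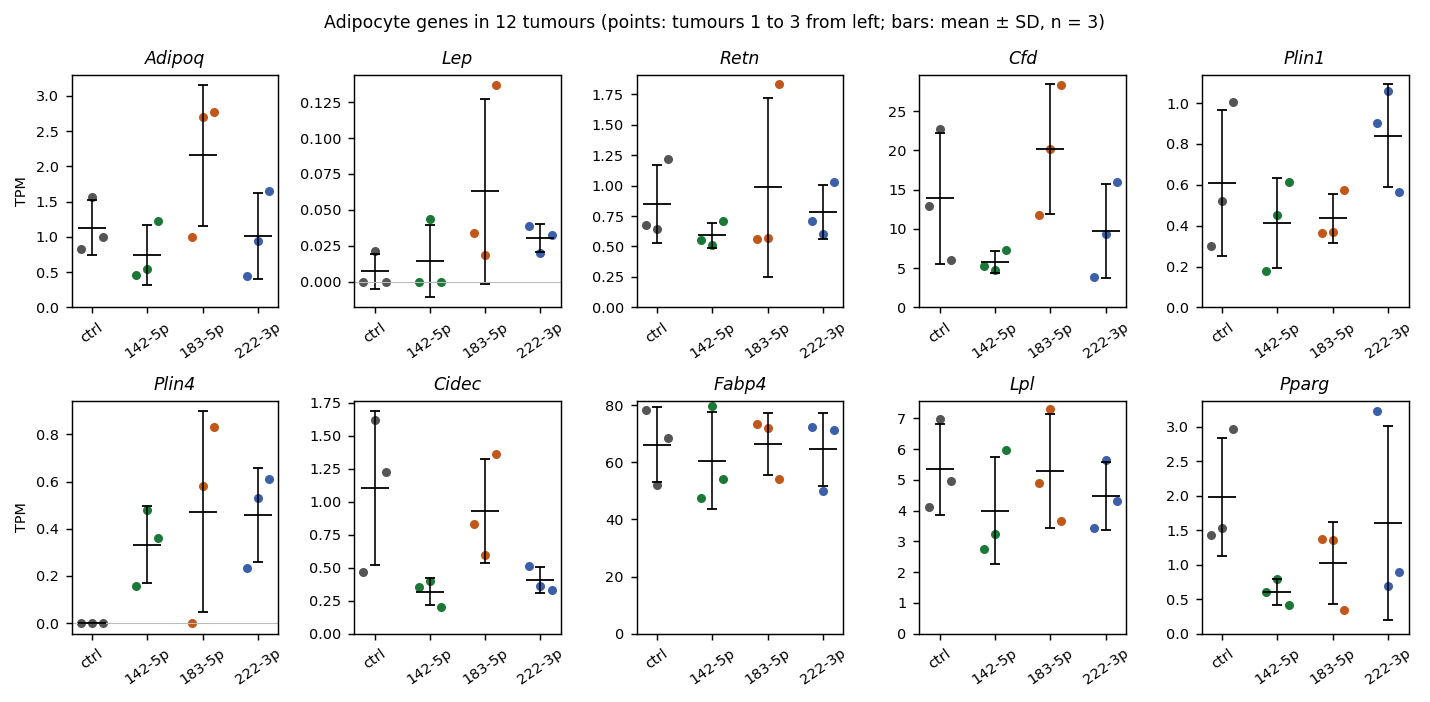
TPM of each adipocyte gene (y axis, a separate scale for each gene) in each of the 4 groups (x axis). Points are single tumours, and the bars show the mean and SD of 3 tumours. Plin4 lay at 0 in the 3 ctrl tumours, and Fabp4 lay between 47.7 and 79.7 in all 12.

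Adipoq encodes adiponectin, a hormone made almost only by fat cells (chr16:23146536-23158028, plus strand, GRCm38). Its TPM was 0.825, 1.57 and 0.992 in the 3 ctrl tumours, against 0.457, 0.548 and 1.23 with miR-142-5p-EVs. It was 1.0, 2.71 and 2.77 with miR-183-5p-EVs and 0.439, 0.945 and 1.65 with miR-222-3p-EVs. The highest values were those of miR-183-5p-EV tumours 2 and 3, and every pair of groups overlapped. Behind these values stood 8 to 53 reads per library. Compared to ctrl, the log2 fold change was -0.12 (SE 0.63) with miR-222-3p-EVs, 0.97 (SE 0.62) with miR-183-5p-EVs and -0.61 (SE 0.65) with miR-142-5p-EVs. The largest difference was that of miR-183-5p compared to miR-142-5p, 1.58 (SE 0.63), with an adjusted p of 0.421 (DESeq2, Benjamini-Hochberg over all tested genes).

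Cfd encodes adipsin, a serine protease of the alternative complement pathway that fat cells secrete (chr10:79890853-79892655, plus strand). Its TPM was 13.0, 22.7 and 6.06 in ctrl tumours, 5.26, 4.79 and 7.35 in miR-142-5p-EV tumours, 11.8, 20.2 and 28.4 in miR-183-5p-EV tumours, and 3.91, 9.36 and 15.9 in miR-222-3p-EV tumours. The 3 miR-183-5p-EV tumours were all above the 3 miR-142-5p-EV tumours, while both groups overlapped with ctrl. The log2 difference of miR-183-5p compared to miR-142-5p was 1.82 (SE 0.52), with an adjusted p of 0.121 in DESeq2. It had an adjusted p of 0.000675 when only these 6 libraries were fitted. Against ctrl it was -1.27 (SE 0.52) in miR-142-5p-EV tumours, with an adjusted p of 1 (DESeq2).

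Lep, the gene of the satiety hormone leptin (chr6:29060220-29073877, plus strand), had between 0 and 7 reads. It was at 0 in 4 libraries, where up to 3 reads would be within counting error, and miR-183-5p-EV tumour 3 held the 7 reads. No difference was detectable at this depth. Retn, the gene of resistin (chr8:3655770-3660110, plus strand), lay between 0.512 and 1.83 TPM, with 9 of 12 libraries under 10 reads. Its highest value was also that of miR-183-5p-EV tumour 3, and its log2 fold changes against ctrl were between -0.52 and 0.24.

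Plin4, a perilipin of small lipid droplets (chr17:56100591-56109803, minus strand), split the libraries into those with reads and those without. It was listed at 0 in ctrl tumours 1, 2 and 3 and in miR-183-5p-EV tumour 1. In the miR-142-5p-EV tumours it had 14, 40.3 and 33.7 estimated reads. In miR-183-5p-EV tumours 2 and 3 it had 58.2 and 77.2, whereas with miR-222-3p-EVs it had 21.7, 48.7 and 67.9. The ctrl tumours did not overlap with the miR-142-5p or the miR-222-3p-EV tumours, and met the miR-183-5p-EV tumours at 0. Against a floor of 3 reads per ctrl library, the mean normalised count was at least 14.3-fold higher with miR-222-3p-EVs, 14.8-fold with miR-183-5p-EVs and 10.2-fold with miR-142-5p-EVs. The difference did not pass the test in the fit of all 12 libraries: DESeq2's adjusted p was 0.0711, 0.173 and 0.439, in the same order.

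The Plin4 result turned on the fit. With the replicate block the adjusted p (DESeq2) was 0.000633 with miR-222-3p-EVs, 0.0161 with miR-183-5p-EVs and 0.0143 with miR-142-5p-EVs, each against ctrl. With only the groups compared it was 0.00404 for miR-142-5p and 3e-05 for miR-222-3p, and without miR-183-5p replicate 1 it was 3.99e-06 for miR-183-5p. edgeR called no gene in any of the 6 contrasts. Plin4 was the only 1 of 35944 genes with no reads in those 4 libraries and at least 10 in each of the other 8. Whether those 4 libraries held Plin4 reads that were not assigned to it was not tested. Plin4 has 2 annotated transcripts and overlaps the opposite-strand gene Hdgfl2 by 17 bases at its 3′ end.

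Cidec, which drives the fusion of lipid droplets (chr6:113424634-113435760, minus strand), had a TPM of 0.471, 1.62 and 1.22 in ctrl tumours and 0.351, 0.398 and 0.203 in miR-142-5p-EV tumours. It was 0.829, 0.593 and 1.36 in miR-183-5p-EV tumours and 0.515, 0.363 and 0.333 in miR-222-3p-EV tumours. On the normalised count scale, the ctrl and the miR-183-5p-EV tumours each lay above all tumours of the other two groups. The log2 fold change against ctrl was -1.78 (SE 0.66) in miR-142-5p and -1.46 (SE 0.62) in miR-222-3p-EV tumours, with an adjusted p of 0.921 and 1 (DESeq2). These values rest on 4 to 37 reads per library.

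Plin1, the perilipin that gates lipolysis on the large droplet (chr7:79720218-79732903, minus strand), had its highest group mean in miR-222-3p-EV tumours, at 0.841 ± 0.253 TPM (SD, n = 3), against 0.609 ± 0.360 in ctrl. The group means were 0.413 ± 0.221 in miR-142-5p and 0.435 ± 0.119 in miR-183-5p-EV tumours. These values rest on 6 to 27 reads per library. The log2 fold change of miR-222-3p against ctrl was 0.49 (SE 0.56). It lay between 0.087 and 0.97 over the alternative fits and with 1 tumour left out. None of the 6 contrasts had an unadjusted p under 0.05 in DESeq2. The order of the groups was not that of Adipoq and Cfd, nor that of Cidec.

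Fabp4, the fatty acid binding protein of fat cells and of capillary endothelium (chr3:10204088-10208576, minus strand), had TPM values of 78.2, 52.0 and 68.4 in ctrl and 47.7, 79.7 and 54.3 in miR-142-5p-EV tumours. They were 73.4, 71.9 and 54.1 in miR-183-5p and 72.4, 49.9 and 71.4 in miR-222-3p-EV tumours. All groups overlapped, and the log2 fold changes against ctrl were -0.13, 0.016 and -0.052, each with an SE of 0.25. Its coefficient of variation over the 12 tumours was 18.4%, the lowest of the 10 genes.

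Lpl encodes lipoprotein lipase, which frees fatty acids from circulating lipoproteins (chr8:68880491-68907448, plus strand). Its TPM was 4.10, 6.97 and 4.95 in ctrl, 2.75, 3.24 and 5.98 in miR-142-5p, 4.90, 7.31 and 3.67 in miR-183-5p, and 3.44, 5.66 and 4.31 in miR-222-3p-EV tumours. All groups overlapped. The log2 fold changes against ctrl were -0.42 (SE 0.33), 0.027 (SE 0.32) and -0.24 (SE 0.32).

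Pparg (chr6:115360951-115490399, plus strand) had a TPM of 1.44, 1.54 and 2.97 in ctrl and 0.603, 0.787 and 0.416 in miR-142-5p-EV tumours. It was 1.38, 1.36 and 0.346 in miR-183-5p and 3.23, 0.696 and 0.901 in miR-222-3p-EV tumours. In TPM the ctrl tumours lay above all miR-142-5p and all miR-183-5p-EV tumours, and overlapped with the miR-222-3p-EV tumours through tumour 1. The log2 fold change against ctrl was -1.68 (SE 0.65) in miR-142-5p, with an adjusted p of 1, and -0.90 (SE 0.63) in miR-183-5p, with an adjusted p of 1 (DESeq2). Reads per library ranged from 9 to 62, and before length correction they did not separate ctrl from miR-183-5p-EV tumours. Ctrl tumour 2 had 21 reads, against 43 and 42 in miR-183-5p-EV tumours 1 and 2. The most abundant Pparg transcript held 50.3% of the reads and was at 0 in 5 libraries. The part of the assignment of reads to transcripts in this separation was not tested.

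**Figure D2:**
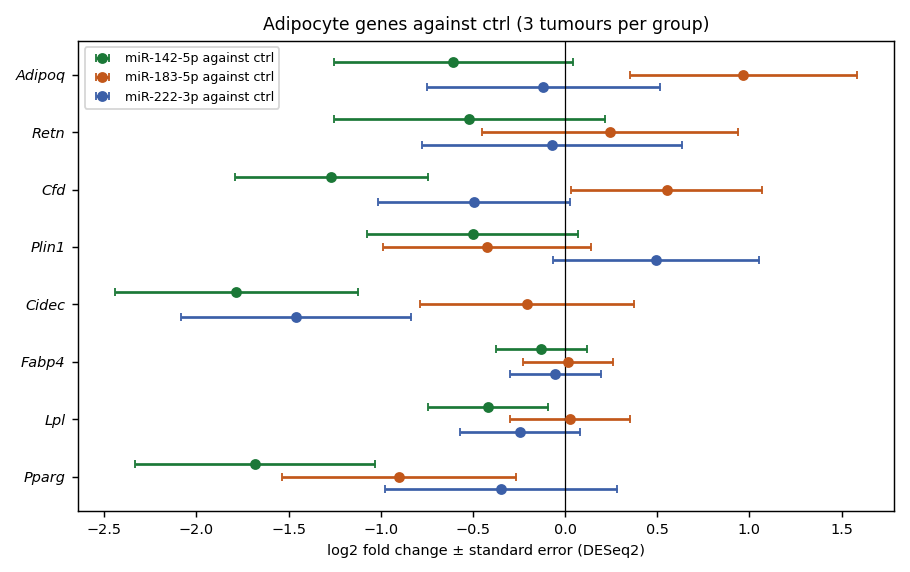
Log2 fold change against ctrl with its standard error (x axis) for 8 adipocyte genes (y axis) and 3 contrasts, 3 tumours per group. Plin4, at 0 in every ctrl tumour, and Lep, not tested, are not drawn. Cidec and Pparg lay farthest below 0 in miR-142-5p-EV tumours, and Fabp4 lay closest to 0.

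Across the set, 0 of 9 tested members passed an adjusted p of 0.05 in any of the 6 contrasts in DESeq2, and 0 in edgeR. The share of all genes that passed was 0.026% with miR-222-3p-EVs, 0% with miR-183-5p-EVs and 0.00649% with miR-142-5p-EVs, each against ctrl. The share passing was 0.0519% for miR-183-5p compared to miR-142-5p, 0.0324% for miR-183-5p compared to miR-222-3p and 0.0389% for miR-142-5p compared to miR-222-3p. At an unadjusted p under 0.05, 4 of 9 members stood apart in miR-142-5p against ctrl, Plin4 higher and Cfd, Cidec and Pparg lower, against 3.56% of all genes. Plin4 alone did so in miR-183-5p against ctrl (3.22% of all genes), and Plin4 and Cidec in miR-222-3p against ctrl (2.29%). Between miRNA groups the members were Adipoq, Cfd and Cidec for miR-183-5p compared to miR-142-5p (7.95%), Cfd and Cidec for miR-183-5p compared to miR-222-3p (3.24%), and Pparg for miR-142-5p compared to miR-222-3p (3.59%). edgeR gave 4, 1, 2, 3, 1 and 0 members at an unadjusted p under 0.05 in the same order of contrasts.

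On the normalised count scale, groups did not overlap in 4 of 9 members for miR-142-5p against ctrl, where 6.07% of all genes did not overlap. These were Plin4, Cidec, Pparg and Retn. Non-overlap was seen in 1 member for miR-183-5p (Pparg, 9.17% of all genes) and in 2 for miR-222-3p (Plin4 and Cidec, 5.5%). The gap of Retn was 7.44 in miR-142-5p-EV tumour 3 against 7.53 in ctrl tumour 2, and its TPM overlapped (0.709 and 0.647). Cidec in miR-222-3p-EV tumours also overlapped with ctrl in TPM (0.515 in tumour 1, against 0.471 in ctrl tumour 1). The median log2 fold change of the 9 members was -0.12 with miR-222-3p-EVs, 0.027 with miR-183-5p-EVs and -0.52 with miR-142-5p-EVs against ctrl, where that of all tested genes lay between -0.011 and -0.0050. In miR-142-5p-EV tumours 8 of 9 members were lower than in ctrl, with Plin4 the exception. These 3 contrasts share the ctrl tumours.

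All 9 tested members varied more within groups than the median gene, whose pooled within-group SD was 0.24 on the log2 scale. That SD was 0.33 for Fabp4, 0.44 for Lpl, 0.74 for Adipoq, 0.82 for Cfd and 0.84 for Pparg. The median gene was not matched to the members for level. Counting error alone would give Adipoq a coefficient of variation of 20.8% at its mean of reads. The value measured on normalised counts was 64.1% over all 12 libraries, differences between groups included. For Cfd the corresponding values were 8.24% and 64.6%, and for Retn 33.2% and 47.7%.

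To ask whether the genes moved together from tumour to tumour, each of the other 9 was compared with Adipoq over the 12 libraries on log2(normalised count + 1). Cfd followed Adipoq, with Pearson's r = 0.89 (permutation p = 9e-05, adjusted p = 0.00081 over the 9 correlations) and Spearman's rho = 0.88 (permutation p = 0.00032, adjusted p = 0.00288). Without the 2 libraries farthest from the Adipoq median, miR-183-5p-EV tumours 2 and 3, r was 0.84 (permutation p = 0.00267). For Lpl, r was 0.64 (permutation p = 0.027, adjusted p = 0.122) and rho 0.62 (permutation p = 0.0378, adjusted p = 0.17), and without those 2 libraries r was 0.83. Without miR-183-5p-EV tumour 3 alone, r of Lpl was 0.88. Fabp4 did not follow Adipoq (r = -0.065, permutation p = 0.837), nor did Plin1 (r = 0.047, permutation p = 0.882) at this number of tumours. Over all 45 pairs of the 10 genes the median r was 0.14, and 27 pairs were above 0.

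**Figure D3:**
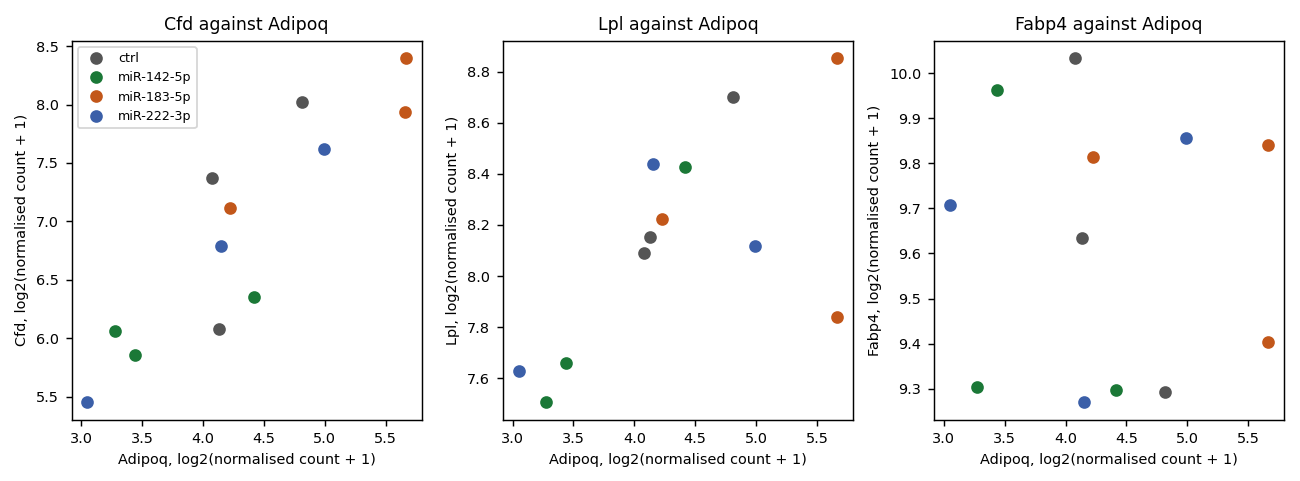
Log2(normalised count + 1) of Cfd, Lpl and Fabp4 (y axes) against that of Adipoq (x axes), with 1 point per tumour coloured by group. Cfd rises with Adipoq (r = 0.89), Lpl does so except for miR-183-5p-EV tumour 3, and Fabp4 does not (r = -0.065).

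In 4 libraries, the 3 miR-222-3p-EV tumours and miR-183-5p-EV tumour 3, the pseudogene Gm28661 took under 1% of the reads it shares with the mitochondrial gene mt-Co2, and in the other 8 it took between 7.13% and 41.8%. Within those 8 libraries r with Adipoq was 0.80 for Cfd (permutation p = 0.0121, adjusted p = 0.0543) and 0.97 for Lpl (permutation p = 8e-05, adjusted p = 0.00072). The remaining 4 libraries were too few for a value of their own. All ctrl and all miR-142-5p-EV tumours were among the 8. A difference of the miR-222-3p-EV tumours from either of these groups therefore cannot be told apart from this split.

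Among the 13739 other genes with a mean normalised count of at least 20, the 12 most like Adipoq over the 12 libraries had r between 0.83 and 0.91. Among them were Cyp2s1, Tnfaip2, Sema6b, Ace, Tm9sf1, Lrrc8e, Tor4a, Uox, Ntn4 and Hnrnpc. Cyp2s1, a cytochrome P450, led with r = 0.91 at a mean of 0.871 TPM. None of these named genes is on the lists of fat-cell genes used here.

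Other genes of the fat cell were read from 6 lists covering transcription factors, fatty acid uptake and synthesis, lipolysis, adipokines, other fat-enriched genes and brown fat. Of their 79 genes 64 were tested, and 0 passed in any of the 6 contrasts in DESeq2. At an unadjusted p under 0.05 (DESeq2), 2 were higher and 2 lower with miR-222-3p-EVs against ctrl, where 2.29% of all genes passed. With miR-183-5p-EVs 4 were higher and 2 lower (3.22% of all genes), and with miR-142-5p-EVs 2 and 2 (3.56%). For miR-183-5p compared to miR-142-5p 5 were higher and 2 lower (7.95%). For miR-183-5p compared to miR-222-3p 4 were higher and 6 lower (3.24%), and for miR-142-5p compared to miR-222-3p 0 and 3 (3.59%). The abundant ones are also used by many other cells: Plin2, the droplet protein found in most tissues, lay between 223 and 385 TPM, Slc27a1, a fatty acid transporter, between 71.2 and 122, and Fasn, the fatty acid synthase, between 61.6 and 118. The adiponectin receptor gene Adipor1 lay between 97.4 and 117 TPM. Other genes known from fat cells spanned a wide range of levels. Adig lay between 0 and 0.443 TPM and Aqp7, a glycerol channel, between 0.161 and 0.729, whereas Adrb3, the beta-3 adrenergic receptor, lay between 2.96 and 6.71 and Lipe, the hormone-sensitive lipase, between 24.6 and 31.9. In the list of other fat-enriched genes 7 of 12 had a mean under 1 TPM, and in the brown fat list 6 of 8. The brown fat genes Ucp1, Cidea and Elovl3 stayed at or under 0.139 TPM. Dio2 and Cox7a1, which led that list, were higher, between 1.20 and 19.0 TPM and between 2.63 and 8.51 TPM.

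Marker lists of other cells were read beside these results. The macrophage list (10 genes, all tested) summed to 1836 to 5347 TPM, led by Lyz2 and C1qa, and its lowest library was miR-183-5p-EV tumour 3. In miR-183-5p compared to miR-142-5p, where Adipoq, Cfd and Cidec were higher, 6 of 10 macrophage genes were lower and 4 of 10 neutrophil genes were higher at an unadjusted p under 0.05, against 7.95% of all genes, and 0 of either list passed the adjusted test in DESeq2. The median log2 difference was -0.58 over the macrophage list and 0.78 over the neutrophil list, against -0.0027 over all tested genes. The part of either cell type in the values of Adipoq, Cfd and Cidec was not tested. The endothelial list (10 genes), led by Egfl7 and Pecam1, summed to 221 to 336 TPM. The preadipocyte and fibroblast list, led by Col3a1 and Col1a1, summed to 233 to 976 TPM. The neutrophil list (S100a9, S100a8) summed to 1101 to 3458 TPM, the carcinoma list (Krt18, Krt8) to 1670 to 2594, the skin list (Krt14, Krt10) to 15 to 44.3 and the mammary epithelium list (Glycam1, Csn3) to 10.1 to 291. Krt14 alone lay between 6.74 and 37.4 TPM. In the skin list 6 of 10 genes had a mean under 1 TPM, among them Krt5, at most 0.451, and Krt1, at 0 in every library. The part of the cells of these lists in the levels of Fabp4, Lpl and Pparg was not tested.

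The skeletal muscle list summed to 668 TPM in miR-183-5p-EV tumour 3 and to between 69.4 and 113 in the other 11 libraries. Its leading genes were Tnni2, between 53.1 and 97.5 TPM in those 11 libraries, and Tnnt3, between 5.93 and 14.1. Acta1, the actin of skeletal muscle, was 79.9 TPM in miR-183-5p-EV tumour 3 and at most 0.965 elsewhere. Car3, which fat and muscle both express, was 16.1 against at most 2.79. The same library held the highest Adipoq, Cfd, Retn, Lep and Plin4. Without it the log2 difference of Cfd in miR-183-5p compared to miR-142-5p was 1.49, and that of Adipoq 1.36. The part of adjoining tissue in these values was not tested. In miR-142-5p-EV tumour 3 the milk and lymph node gene Glycam1 was 275 TPM, and it was listed at 0 elsewhere.

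**Figure D4:**
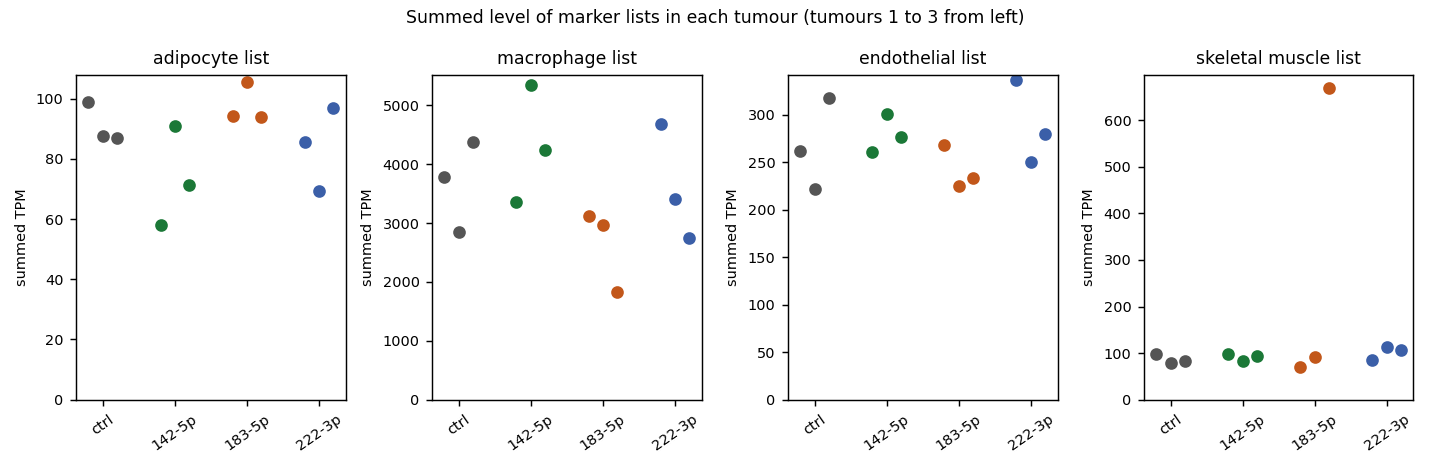
Summed TPM (y axes, from 0) of the adipocyte, macrophage, endothelial and skeletal muscle lists in each tumour, by group (x axes), with tumours 1 to 3 from left to right. The muscle sum of miR-183-5p-EV tumour 3, 668, stands apart from the other 11 libraries.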

How the data were processed

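Polyadenylated RNA of 12 tumours was sequenced as strand-specific libraries. The authors quantified reads with Salmon, and the deposited tables hold, per transcript, an estimated count, a TPM value and an effective length. Transcripts (118783, of which 116710 matched) were joined without version to GENCODE M21 on GRCm38. The Ensembl release in the methods differs from that in the tables' names. Sums of estimated counts over a gene's transcripts were rounded, with 20285968 to 27021401 reads per library. The labels number tumours without naming a source, so p-values measure the spread between these tumours. DESeq2 1.42.0 (R 4.3.3) fitted the 12 libraries with the group as factor and transcript length as offset. P-values were adjusted by Benjamini-Hochberg at 0.05. edgeR 4.0.16 (quasi-likelihood), TMM factors, no count filter, no offset, only the groups compared, the replicate block and each tumour left out were alternatives. Scripts were tested on simulated data. There the share of unchanged genes among DESeq2's calls was above the nominal rate, and that among edgeR's calls stayed near it. Correlations used a pseudocount of 1 and two-sided permutation tests with 100000 resamples. The named genes were the 10 members, the 12 genes most like Adipoq, the leading genes of each list, Gm28661 and mt-Co2. Some genes that the rule includes are not reported here. Further list genes were named after their values were seen. Members and lists were chosen with earlier results of these data known.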

Additional observations from a re-analysis of the deposited data

How the results depend on the processing

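The number of adipocyte genes past the threshold stayed at 0 in all 6 contrasts with edgeR, with TMM factors, with no count filter and with no length offset. It became 1 with the replicate block in all 3 contrasts against ctrl (Plin4), and 1 with only the groups compared for miR-142-5p and miR-222-3p against ctrl (Plin4) and for miR-183-5p compared to miR-142-5p (Cfd). The cause was not tested. Leaving out 1 tumour gave 0 to 1 for miR-183-5p against ctrl, the 1 being Plin4 without miR-183-5p replicate 1, and 0 to 0 for the others. By the median, tumours with the same number were not more alike. The median correlation of deviations was -0.087 for the same number (18 pairs, -0.44 to 0.22). For other numbers it was 0.028 (36 pairs, -0.27 to 0.43). Whether a number marks a shared day or cage cannot be told from these overlapping ranges, so the replicate block rests on numbers alone.

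Counts over all genes moved more. The 12-library fit called 1, 0, 4, 8, 5 and 6 genes for ctrl compared to miR-142-5p, then to miR-183-5p and then to miR-222-3p, for miR-183-5p compared to miR-142-5p, miR-183-5p compared to miR-222-3p and miR-142-5p compared to miR-222-3p. edgeR called 0 in each. With no count filter miR-183-5p compared to miR-142-5p gave 5, and with no length offset 4, while miR-142-5p against ctrl gave 0. The replicate block gave 1 for miR-183-5p against ctrl and 9 for miR-183-5p compared to miR-222-3p. Only the groups compared gave 36, 16, 71, 18 and 15 for all but the first contrast. Leaving out 1 tumour gave 0 to 75, 0 to 15, 2 to 6, 0 to 415, 1 to 16 and 2 to 72 in the same order, the highest values of the first, the fourth and the last without miR-142-5p replicate 1.

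Of 648 fold changes of adipocyte genes under alternatives, 7 passed the threshold (6 of Plin4, 1 of Cfd) and 42 had the other sign, none of which passed. The sign changed for Fabp4 in miR-183-5p against ctrl with no length offset (-0.017), and for Plin4 with the replicate block in miR-183-5p compared to miR-142-5p (-0.042) and compared to miR-222-3p (-0.50). The others came from leaving out 1 tumour.

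Leaving out 1 tumour gave log2 fold changes on both sides of 0 for these genes. In miR-142-5p against ctrl they ran from -0.38 to 0.085 for Fabp4. In miR-183-5p against ctrl they ran from -0.30 to 0.25 for Lpl, -0.15 to 0.23 for Fabp4, -0.59 to 0.20 for Cidec, -0.74 to 0.058 for Plin1 and -0.54 to 0.55 for Retn. In miR-222-3p against ctrl they ran from -0.22 to 0.16 for Fabp4, -0.73 to 0.26 for Adipoq, -1.10 to 0.0058 for Cfd, -1.25 to 0.010 for Pparg and -0.37 to 0.20 for Retn. In miR-183-5p compared to miR-142-5p they ran from -0.25 to 0.43 for Plin1, -0.14 to 1.12 for Plin4 and -0.019 to 1.07 for Retn. In miR-142-5p compared to miR-222-3p they ran from -0.33 to 0.052 for Fabp4, -0.52 to 0.032 for Lpl and -0.98 to 0.13 for Adipoq. In miR-183-5p compared to miR-222-3p they ran from -0.082 to 0.20 for Fabp4, -0.64 to 0.63 for Plin4, -0.054 to 0.48 for Lpl, -0.47 to 0.62 for Retn and -0.91 to 0.35 for Pparg.

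The correlation with Adipoq changed sign for Fabp4 (0.015) and Pparg (0.29) in the 8 libraries over 1% Gm28661, where Cfd no longer passed (0.80) and Lpl did (0.97), and for Plin1 with log2(TPM + 1) (-0.037). Leaving out 1 tumour gave r of 0.86 to 0.92 for Cfd, 0.51 to 0.88 for Lpl (passing without miR-183-5p replicate 3), -0.23 to 0.067 for Fabp4 and -0.27 to 0.24 for Plin1.

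Depth limits most members: 5 of the 10 had a mean under 1 TPM. Lep, Retn, Cidec, Adipoq and Plin1 had medians of 1 to 21.2 reads per library, with 19 for Adipoq. A difference in these genes rests on few reads, and a missed threshold does not show that groups were alike.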
